A study of Mus musculus with 8 samples.

Results

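The genes of antigen presentation by MHC class II were followed in a ribosome profiling study of mature dendritic cells with and without Mettl3. They were chosen by symbol as 10 genes, namely 4 class II chains (H2-Aa, H2-Ab1, H2-Eb1 and H2-Eb2), the invariant chain Cd74, 4 chains of the peptide loaders (H2-DMa, H2-DMb1, H2-DMb2 and H2-Oa) and the transcriptional coactivator Ciita. All 10 were present in both deposited tables, which share 11742 genes, and all 10 had a mean of at least 1 RPKM (reads per kilobase and library size) in input and in footprints, as did 10320 genes in all. The cells came from bone marrow of C57BL/6 mice aged 6 weeks. They were grown with GM-CSF (10 ng/ml) and IL-4 (1 ng/ml), selected on CD11c beads on day 5 and stimulated with LPS, a bacterial agonist of TLR4, at 100 ng/ml for 24 h. Mettl3WT mice carried Mettl3 fl/fl without Cre. Mettl3KO mice carried Mettl3 fl/fl with CD11c-Cre, which acts only in cells that have switched on CD11c, so other cells of the culture keep the gene. Every lysate was split into input mRNA and the fragments that single ribosomes protected (RPF), with 2 replicates for each of the 4 groups and 8 libraries in all. The sources conflict on this, since the series' design text denies any replicate while sample titles number a second one and each replicate has its own table; the titles were followed. Cells of several littermate pairs were used, and no source says which mice went into which replicate, so p-values measure only how far these samples differ, which may be technical.

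MHC class II molecules are pairs of an alpha and a beta chain that carry peptides of ingested proteins to the cell surface, where CD4+ T cells read them. The invariant chain blocks the groove until proteases of the endosome cut it down, and DM then exchanges the remaining fragment for peptide while DO restrains DM. LPS makes dendritic cells move class II to the surface, while transcription of nearly the whole group depends on Ciita, which binds no DNA itself. The 8 members of the H2 complex lie in one region of mouse chromosome 17 (mm10), from H2-Oa at 34092379 to the end of H2-Eb2 at 34341410, with Cd74 on chromosome 18 and Ciita on chromosome 16. The complex that writes m6A into mRNA has Mettl3 as its catalytic part, and the ratio of RPF to input (translation efficiency) was used by the study to ask which mRNAs carry fewer ribosomes without it.

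In replicate 2 the values could be turned back into reads, with library totals of 4835140 (WT RPF), 5276406 (KO RPF), 9920474 (WT input) and 8794578 (KO input). The depth of replicate 1 is unknown. Mettl3 was examined as a check of the labels. Its RPF was 34.0 RPKM (WT) against 15.3 RPKM (KO) in the first replicate and 9.63 against 5.88 RPKM in the second, whereas its input was 6.97 against 6.27 RPKM in the first replicate and 10.1 against 11.9 RPKM in the second. Input of replicate 2 was thus not lower in KO. The deletion takes out exons 2 to 4 alone, and an RPKM over the whole gene also counts the exons that stay, so it is a weak check, and each direction given here rests on the labels WT and KO. The median of all tested genes moved by a log2 KO/WT of -0.46 in RPF of replicate 1 and of -0.03 in replicate 2. Changes are therefore given relative to that median (a relative log2 KO/WT), on the log2(RPKM + 0.5) scale, with the change as deposited where the test used it.

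In input mRNA the class II genes spanned a wide range of levels, with the lowest of them, H2-Eb2, between percentiles 18.2 and 39.0 of the tested genes. Cd74 was the most abundant, with 1804 RPKM (WT) against 1791 RPKM (KO) in the first replicate and 2608 against 2519.8 RPKM in the second, and it ranked between 13 and 20 among the tested genes in all 4 input libraries. H2-Aa, the alpha chain of I-A, had 671 against 852 RPKM in the first replicate and 1016 against 906 RPKM in the second. H2-Ab1, its beta chain, had 495 against 473 RPKM in the first replicate and 459 against 489 RPKM in the second. Between these partners H2-Aa was the higher in every input library, by a ratio of RPKM between 1.35 and 2.21.

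H2-Eb1, the beta chain of I-E, followed with 323 RPKM (WT) against 303 RPKM (KO) in the first replicate and 679 against 554 RPKM in the second. Its replicates differed more than its genotypes, and its order with H2-Ab1 turned between replicates. C57BL/6 mice carry a defective alpha chain gene of I-E, so the I-E beta chain has no regular partner in them. A row for that locus, H2-Ea-ps, stood in the table of replicate 1 and listed 0 RPKM in WT input and 0.0642 RPKM in KO input. In RPF it listed 1.36 RPKM (WT) and 1.86 RPKM (KO). H2-Eb2, a minor beta chain beside H2-Eb1, was the lowest of the 10 in every input library, with 3.24 against 3.94 RPKM in the first replicate and 9.51 against 6.59 RPKM in the second.

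The peptide loaders lay below all of these but H2-Eb2. H2-DMb1 input was 43.8 RPKM (WT) against 35.2 RPKM (KO) in the first replicate and 55.0 against 56.0 RPKM in the second. H2-DMa, the alpha chain of DM, had 38.6 against 31.1 RPKM in the first replicate and 32.0 against 39.1 RPKM in the second. H2-DMb2, the second DM beta gene of the mouse, had 28.3 against 23.4 RPKM in the first replicate and 25.4 against 27.6 RPKM in the second. Across the input libraries only the ranges of H2-DMa and H2-DMb1 overlapped, and H2-DMb2 lay below both.

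H2-Oa, the alpha chain of DO, had input values of 10.4 RPKM (WT) against 14.03 RPKM (KO) in the first replicate and 13.2 against 11.9 RPKM in the second. Its partner H2-Ob was below the filter, with 0.445 against 0.696 RPKM in the first replicate and 0.415 against 0.596 RPKM in the second, where these values stand for 11 and 14 reads. DO is best known from B cells, and markers of B cells were near 0: the 4 that were used here (Cd79b, Ms4a1, Pax5 and Blk) summed to between 1.01 and 1.57 RPKM in the input libraries, and Ms4a1 was listed at 0 in WT input of replicate 1. Ciita had 6.25 and 7.88 RPKM in replicate 1 and 18.9 RPKM in both genotypes in replicate 2.

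**Figure D1:**
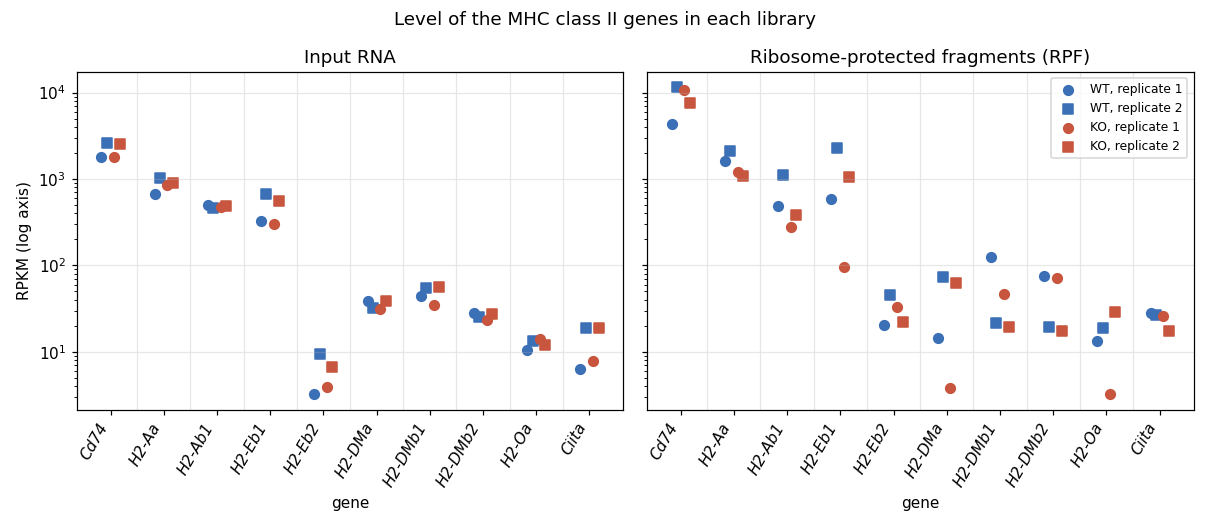
RPKM of the 10 class II genes on a log axis, in input mRNA (left) and RPF (right), with 1 point per library: blue for WT, red for KO, circles for replicate 1 and squares for replicate 2. WT and KO lie close together in input. In RPF the KO points of H2-Aa, H2-Ab1, H2-Eb1, H2-DMa, H2-DMb1, H2-DMb2 and Ciita lie below the WT point of the same replicate. The points are not set against the median gene, whose log2 KO/WT in RPF was -0.46 in replicate 1 and -0.03 in replicate 2. Several genes differ more between replicates than between genotypes.

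No class II gene passed the test between WT and KO in input mRNA. Limma called 0 of the 10 genes, as it called 0% of all tested genes, and 0 of the 10 had an unadjusted p under 0.05, against 339 genes (3.28%) in all. The fitted log2 KO/WT ran from -0.19 ± 0.24 for H2-Eb1 to 0.16 ± 0.17 for Ciita (SE, n = 2 per group), with an adjusted p of 1.00 for each. H2-Eb1 was the only gene below the median in both replicates (relative log2 KO/WT of -0.06 and -0.29), a direction shared by 23% of tested genes, with none of the 10 at least 1.5-fold lower in both (0.136% of tested genes), and Ciita the only one above it in both (0.34 and 0.01). The other 8 genes changed sides, and the median of the 10 was -0.01 in each replicate.

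The genes that changed sides fell into both orders. H2-Aa (0.38 and -0.16), H2-Eb2 (0.28 and -0.49), H2-Oa (0.44 and -0.13) and Cd74 (0.02 and -0.04) were on the higher side in KO in replicate 1 and on the lower side in replicate 2. H2-Ab1 (-0.03 and 0.10), H2-DMa (-0.28 and 0.29), H2-DMb1 (-0.28 and 0.04) and H2-DMb2 (-0.24 and 0.13) did the reverse. Markers of dendritic cells moved as the first set did: the 7 tested of 8 listed all turned sides between replicates, and their summed input was 2309 and 2891 RPKM in the WT libraries of replicates 1 and 2 and 3144 and 2564 RPKM in the KO libraries, with none at 0. The 10 markers of macrophages moved as the second set did in sum, with 1253 and 1097 RPKM in WT and 928 and 1344 RPKM in KO, but 2 of them (Cd68 and Mrc1) were below the median in both replicates and C1qb and C1qc turned the other way. Neutrophil markers were below the median in both replicates for 9 of 10 (23% of all tested genes), with sums of 1727 (WT) against 1078 (KO) RPKM in the first replicate and 3179 against 2872 in the second. Mast cell and basophil markers were so for 4 of 5, with sums of 19.5 against 14.1 and 64.3 against 36.8 RPKM. By relative log2 KO/WT, Ctsg (-1.71 and -1.28), Mmp8 (-0.60 and -0.60), Mcpt8 (-0.89 and -1.21) and Prss34 (-1.23 and -1.13) lay at least 1.5-fold below the median in both replicates, and Lck, a kinase of T cells, lay above it (0.72 and 0.74). None passed the test. The part of these cell types in the class II values was not tested, and in such bulk samples fewer cells of a type and less RNA per cell cannot be told apart.

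Footprints on the chains of I-A and I-E were lower in KO than in WT of the same replicate for H2-Aa, H2-Ab1 and H2-Eb1, although none passed the test over all genes. H2-Eb1 RPF was 586 RPKM (WT) against 95.8 RPKM (KO) in the first replicate and 2287 against 1046 RPKM in the second. Both KO values lay below the WT value of their replicate, by a relative log2 KO/WT of -2.15 and -1.10 (percentiles 2.1 and 3.0 of all tested genes), yet the groups overlapped, since KO of replicate 2 stood above WT of replicate 1. The fitted log2 KO/WT of the deposited values was -1.87 ± 0.61 (SE, n = 2 per group), with an adjusted p of 0.260 by limma. With each library centred on its median it was -1.63 ± 0.50, with an adjusted p of 0.994.

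H2-Ab1 RPF was 488 RPKM (WT) against 279.7 RPKM (KO) in the first replicate and 1128 against 387 RPKM in the second. The relative log2 KO/WT was -0.34 and -1.51 (percentiles 34.8 and 0.8). The fitted change was -1.17 ± 0.60 with an adjusted p of 0.894. H2-Aa RPF was 1620.4 RPKM (WT) against 1216 RPKM (KO) in the first replicate and 2083 against 1086 RPKM in the second. Relative to the median gene H2-Aa was at 0.04 in replicate 1 and at -0.91 in replicate 2, so the difference in replicate 1 was no larger than that of the median gene. Its fitted change was -0.68 ± 0.63 with an adjusted p of 0.999.

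Markers of cell types also differed in RPF. Itgax, which encodes the CD11c used for selection and for Cre, had 228 RPKM (WT) against 48.8 RPKM (KO) in the first replicate and 58.9 against 33.2 RPKM in the second, a relative log2 KO/WT of -1.75 and -0.79, while its input turned between replicates. Of the 7 dendritic markers 3 were below the median in RPF of both replicates and 1 above, against 24.4% of all tested genes on each side. The sums of these 7 markers were 5255 (WT) against 1958 (KO) RPKM in the first replicate and 6012 against 5910 RPKM in the second. Of the 10 macrophage markers 4 were below and 3 above, with sums of 1480 against 591 and 969 against 877 RPKM without Cd68, which stood on a length of 1 base in replicate 2. Among the latter Fcgr1 (-1.35 and -0.95) was at least 1.5-fold lower in both and C1qc (1.68 and 1.08) higher. Of the other lists Prss34 (-2.12 and -1.25) was lower by that much and Lck (3.42 and 1.99), Nkg7 (1.16 and 2.73) and Kit (0.72 and 1.83) were higher. Of all tested genes 327 were lower by that much in RPF of both replicates and 417 higher. Neutrophil markers, mostly lower in input, were above the median in RPF of both replicates for 7 of 10 and below it for 1. Their RPF sums were 9201 (WT) against 8913 (KO) RPKM in the first replicate and 17738 against 22467 RPKM in the second. No marker passed the test, and the part of these cell types in the class II footprints was not tested.

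H2-Eb2 went opposite ways. Its RPF was 20.5 RPKM (WT) against 33.4 RPKM (KO) in the first replicate and 45.6 against 22.2 RPKM in the second, a relative log2 KO/WT of 1.15 and -0.99. H2-Eb1 and H2-Eb2 are neighbours on chromosome 17 whose coding sequences are identical in 78.0% of 792 aligned bases, and 15 of the 766 windows of 30 bases (about the length of a footprint) in H2-Eb1 occur in H2-Eb2, so only a small part of either gene could share footprints with the other.

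GGACU is one form of RRACH (R for A or G, H for A, C or U), the wider motif in which METTL3 methylates adenosine. Only GGACT in coding sequences was searched, so other forms of RRACH and the untranslated regions were left out. The coding sequences of H2-Eb1, H2-Ab1 and H2-Aa each hold 2 matches to GGACT. They are shown for the chains whose footprint RPKM was described above, a choice made with those values known and given no test. H2-DMa, which like H2-Eb1 and H2-Ab1 but unlike H2-Aa was below the median in RPF of both replicates, holds none. GGACT is in capitals, sequences are those of GRCm38.p6 (mm10) read along the coding strand, and that of H2-Eb1 crosses an intron after its first 7 bases.
H2-Eb1 coding bases 751 to 785 (chr17:34315147-34315877, plus strand): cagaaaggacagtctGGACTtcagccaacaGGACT
H2-Ab1 coding bases 56 to 90 (chr17:34263367-34263401, plus strand): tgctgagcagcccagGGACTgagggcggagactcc
H2-Ab1 coding bases 522 to 556 (chr17:34267490-34267524, plus strand): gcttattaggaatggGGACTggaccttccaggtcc
H2-Aa coding bases 168 to 202 (chr17:34284420-34284454, minus strand): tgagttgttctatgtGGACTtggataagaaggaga
H2-Aa coding bases 241 to 275 (chr17:34284347-34284381, minus strand): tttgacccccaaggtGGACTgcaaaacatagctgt
Per kilobase of coding sequence this made 2.52 in H2-Eb1, 2.51 in H2-Ab1 and 2.59 in H2-Aa, against a median of 1.07 over 10293 tested genes with a coding sequence in the annotation. Of all these genes 76.8% hold GGACT at least once, and 59.6% of those of 500 to 900 coding bases. Among the other members H2-DMb1 held 4, H2-DMb2 held 3, H2-Eb2 and H2-Oa 1 each, Ciita 9 in a much longer coding sequence, and H2-DMa and Cd74 none. Methylation of these letters was not measured in the libraries used here.

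Cd74 footprints moved in opposite directions in the 2 replicates. Cd74 RPF was 4292 RPKM (WT) against 10798 RPKM (KO) in the first replicate and 11552 against 7534 RPKM in the second. KO of replicate 1 thus stood with WT of replicate 2, and the relative log2 KO/WT was 1.79 and -0.59 (percentiles 94.9 and 13.3). The fitted change was 0.36 ± 0.69 with an adjusted p of 0.999. Relative to H2-Ab1, however, Cd74 footprints were higher in KO in both replicates: the ratio of their RPKM was 8.80 (WT) against 38.6 (KO) in the first replicate and 10.2 against 19.5 in the second. In input that ratio was 3.64 and 3.78 in replicate 1 and 5.68 and 5.15 in replicate 2. This pair was chosen after its values were seen and was given no test.

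Footprints of the DM chains differed widely between replicates. H2-DMa RPF was 14.3 RPKM (WT) against 3.85 RPKM (KO) in the first replicate and 73.7 against 62.9 RPKM in the second, and H2-DMb1 RPF was 126 against 46.6 RPKM in the first replicate and 21.7 against 19.4 RPKM in the second. Both were lower in KO in each replicate, with a relative log2 KO/WT of -1.31 and -0.20 for H2-DMa and of -0.97 and -0.13 for H2-DMb1. The ratio of H2-DMa to H2-DMb1 footprints, partners in DM, was 0.113 (WT) against 0.0826 (KO) in the first replicate and 3.40 against 3.25 in the second, while in input it stayed between 0.582 and 0.881. The 2 tables thus gave opposite orders of these chains in RPF. Both chains of each ratio come from the same library, and why their order turned was not tested. Apart from this, the 2 tables may have been normalized separately, so the tests compare levels only within a table.

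H2-DMb2 RPF was 74.6 RPKM (WT) against 71.9 RPKM (KO) in the first replicate and 19.3 against 17.4 RPKM in the second, a relative log2 KO/WT of 0.40 and -0.11. H2-DMb1 and H2-DMb2 are near copies on chromosome 17, identical in 95.9% of 786 coding bases, and 463 of the 757 windows of 30 bases (61.2%) in each occur in the other. The stretch shown holds their longest identical run, of 221 bases, within 247 bases of 1 exon, with the bases that differ in capitals. It is shown because a footprint from inside it has no single origin.
H2-DMb1 (chr17:34157284-34157530, plus strand): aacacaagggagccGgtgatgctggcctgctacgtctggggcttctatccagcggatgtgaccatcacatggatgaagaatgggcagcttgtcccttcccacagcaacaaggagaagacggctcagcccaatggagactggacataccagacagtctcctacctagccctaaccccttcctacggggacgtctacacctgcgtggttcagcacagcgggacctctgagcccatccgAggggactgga
H2-DMb2 (chr17:34148589-34148835, plus strand): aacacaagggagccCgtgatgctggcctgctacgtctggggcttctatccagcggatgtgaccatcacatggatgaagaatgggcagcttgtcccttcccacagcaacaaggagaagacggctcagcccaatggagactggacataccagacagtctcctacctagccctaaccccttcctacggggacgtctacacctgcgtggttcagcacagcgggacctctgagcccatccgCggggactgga
No source used here says how the counting split such reads, so the values of H2-DMb1 and H2-DMb2 are uncertain. Their ratio in RPF was 1.69 (WT) against 0.648 (KO) in the first replicate and 1.12 against 1.11 in the second.

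H2-Oa RPF was 13.3 RPKM (WT) against 3.21 RPKM (KO) in the first replicate and 18.8 against 28.8 RPKM in the second. It was lower in KO in replicate 1 and higher in replicate 2, with a relative log2 KO/WT of -1.43 and 0.63. The B cell markers used above, near 0 in input, had RPF values of 1.59 to 7.43 RPKM (WT) and 0.731 to 15.5 RPKM (KO) in replicate 1. The KO values of H2-Oa and H2-DMa in that replicate lay within this range, so the size of their changes there is uncertain. The footprints of H2-Ob were few, 9 reads in WT and 8 in KO in replicate 2. Ciita RPF was 27.9 RPKM (WT) against 26.0 RPKM (KO) in the first replicate and 26.8 against 17.2 RPKM in the second, which relative to the median gene was 0.36 and -0.60.

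Over the 10 genes limma called 0 in RPF, where it called 0.242% of all tested genes (25, of which 9 were higher and 16 lower), and 1 of the 10, H2-Eb1, had an unadjusted p under 0.05, as did 5.6% of tested genes. Of the 10 genes 4 (H2-Ab1, H2-Eb1, H2-DMa and H2-DMb1) were below the median in both replicates and none above it in both. Of all tested genes 24.4% did so in each direction. H2-Eb1 alone was at least 1.5-fold lower in both, as were 3.17% of tested genes. The median relative log2 KO/WT of the 10 was -0.15 in replicate 1 and -0.59 in replicate 2, where that of all genes is 0 by construction.

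**Figure D2:**
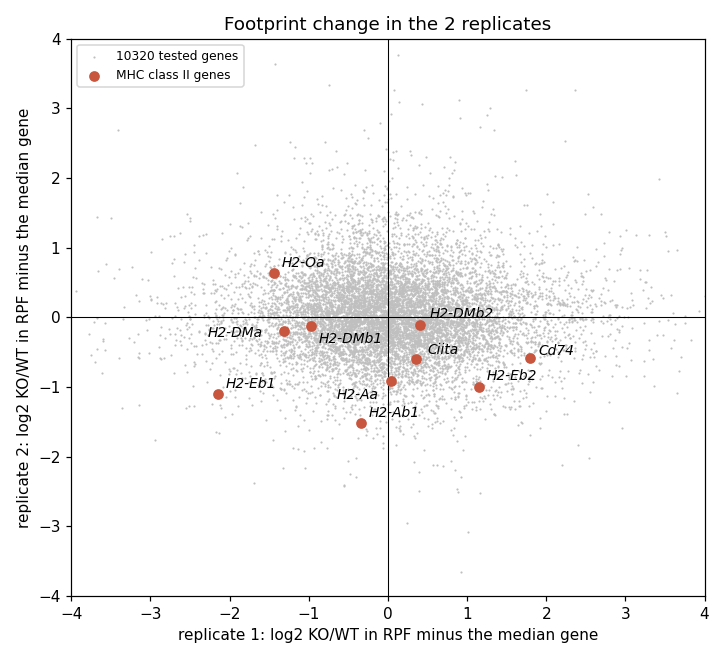
Relative log2 KO/WT in RPF in replicate 1 (x axis) and replicate 2 (y axis) for the tested genes (grey) and the 10 class II genes (red, named), with 46 of the 10320 genes outside the axes. H2-Eb1 lies low on both axes at -2.15 and -1.10, H2-Ab1 low mainly in replicate 2, and Cd74, H2-Eb2 and H2-Oa lie in quadrants where the replicates disagree.

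Reads recovered from replicate 2 show how precisely each change was counted in that replicate. H2-Ab1 was covered by 4335 (WT) and 1624 (KO) footprints, a log2 KO/WT of -1.54 with a 95% exact binomial interval from -1.63 to -1.46. H2-Eb1 had 8756 and 4373 reads (-1.13, from -1.18 to -1.08), H2-Aa 7735 and 4399 (-0.94, from -0.99 to -0.89) and Cd74 36028 and 25639 (-0.62, from -0.64 to -0.59). For these abundant genes the interval was far narrower than the distance between replicates. Intervals cover counting error only, since the libraries had no molecular identifiers and PCR copies count as reads.

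Fewer reads stood behind the others. H2-Eb2 was covered by 190 (WT) and 101 (KO) footprints (-1.04, from -1.40 to -0.68) and Ciita 449 and 315 (-0.64, from -0.85 to -0.43), so both lay below 0 in that replicate. H2-Oa had 68 and 114 reads and lay above 0 (0.62, from 0.17 to 1.07). For H2-DMa (279 and 260 reads), H2-DMb1 (82 and 80) and H2-DMb2 (73 and 72) the interval included 0, and a difference was not detectable at this depth.

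The 10 genes together held 1.20% of all RPF reads in WT and 0.701% in KO in replicate 2 (exact intervals from 1.19% to 1.21% and from 0.694% to 0.708%). In input they held 0.632% and 0.592%. The 4 class II chains accounted for 0.435% of RPF reads in WT and 0.199% in KO, against 0.286% and 0.255% of input reads, and Cd74 for 0.745% and 0.486% of RPF reads. In that replicate the summed group thus took a smaller share of footprints in KO, with a smaller difference in input, although H2-Oa went the other way. Replicate 1 gave the opposite for the sum, with 7263 RPF RPKM in WT and 12575 in KO, which turned with Cd74: without it the other 9 genes summed to 2971 (WT) against 1777 (KO) in the first replicate and 5703 against 2687 in the second.

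**Figure D3:**
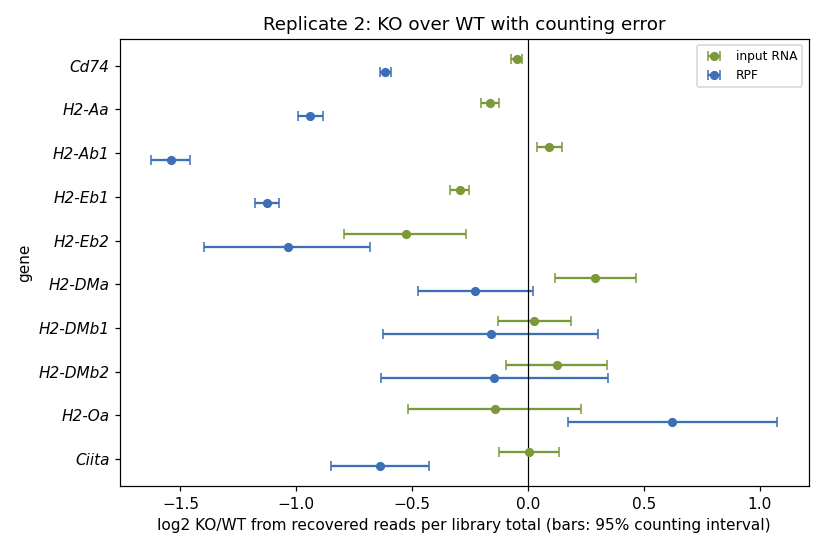
Log2 KO/WT of each class II gene in replicate 2 from recovered reads per library total (x axis), in input (green) and RPF (blue), with bars for the 95% counting interval. RPF lies below 0 without touching it for Cd74, H2-Aa, H2-Ab1, H2-Eb1, H2-Eb2 and Ciita and above 0 for H2-Oa.

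Translation efficiency sets the footprints of a gene against its own mRNA. In WT the ratio of RPF to input was 1.82 in replicate 1 and 3.37 in replicate 2 for H2-Eb1, 0.985 and 2.46 for H2-Ab1, and 2.41 and 2.05 for H2-Aa. In KO it was 0.316 and 1.89 for H2-Eb1, 0.591 and 0.792 for H2-Ab1, and 1.43 and 1.20 for H2-Aa. Each of these chains was lower in KO in both replicates, also relative to the median gene: by a relative log2 KO/WT of -2.10 and -0.82 for H2-Eb1, -0.32 and -1.62 for H2-Ab1, and -0.34 and -0.76 for H2-Aa.

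None of these differences passed the test. The fitted log2 KO/WT of translation efficiency was -1.67 ± 0.65 for H2-Eb1 (adjusted p = 0.567 by limma), -1.18 ± 0.66 for H2-Ab1 (adjusted p = 0.936) and -0.77 ± 0.65 for H2-Aa (SE, n = 2 per group). H2-DMa (-1.04 and -0.49) and H2-DMb1 (-0.70 and -0.17) were also below the median in both replicates. H2-Oa (-1.89 and 0.76), Cd74 (1.76 and -0.55), H2-Eb2 (0.86 and -0.51) and H2-DMb2 (0.64 and -0.24) turned, and Ciita was at 0.00 and -0.61. Limma called 0 of the 10 genes, against 0.165% of all tested genes (17), and 1 of the 10 (H2-Eb1) had an unadjusted p under 0.05, as did 5.55%. In all, 5 of the 10 were lower in both replicates and none higher in both, against 24.7% of tested genes in each direction. H2-Eb1 alone was at least 1.5-fold lower in both, as were 3.92% of tested genes. Among the markers Mertk, Fcgr1 and C1qa were lower by that much in both replicates. C1qc, Mrc1, Ltf, Camp, Ngp, S100a9, Mmp8, Lck and Nkg7 were higher by that much, as were 492 of the 10320 tested genes. Neutrophil markers were above the median in both replicates for 6 of 10 and below it for none.

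**Figure D4:**
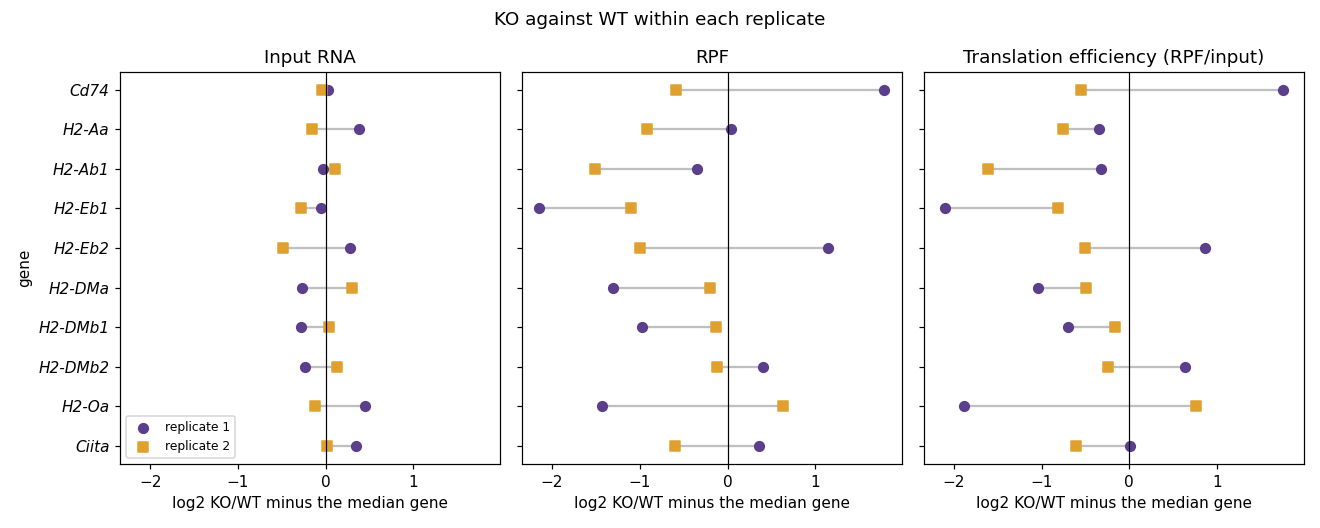
Relative log2 KO/WT of each class II gene in replicate 1 (purple circles) and replicate 2 (orange squares) for input, RPF and translation efficiency, with a grey line joining the replicates. Input values lie within -0.49 and 0.44, while RPF values span -2.15 to 1.79, and both replicates lie left of 0 in translation efficiency for H2-Aa, H2-Ab1, H2-Eb1, H2-DMa and H2-DMb1.

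Few members kept their position among the translation efficiencies of all genes in a lysate. H2-Eb2 stood high in every lysate, between percentiles 81.8 and 95.4. H2-Ab1 stood at percentiles 22.2 in WT and 17.1 in KO in replicate 1 and at 88.0 and 36.3 in replicate 2. H2-DMa stood at 6.5 and 2.0 in replicate 1 but at 86.3 and 72.3 in replicate 2, and H2-DMb1 at 57.9 and 40.7 and then at 10.7 and 9.3. For both DM genes the positions differed more between replicates than between genotypes.

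Class II promoters share an X box and a Y box, to which RFX, CREB and NF-Y bind as the platform for Ciita. In RefSeq promoters (250 bases before to 50 after the start, GRCm38.p6) of the members listed there, stretches that end in the Y box are shown as a feature that did not enter the choice of genes. AACNGATG, taken for the core of the X box, and GATTGG, taken for the Y box, were both matched in 4 of the 7 members listed. H2-Oa and H2-Aa are shown beside them with GATTGG but no match to AACNGATG, which does not mean that they lack an X box. Capitals mark AACNGATG and GATTGG, and in H2-Aa also TGACGTCA, taken for the X2 part of the X box. These letters were chosen after the sequences were seen.
H2-Eb1 (chr17:34305770-34305814, plus strand): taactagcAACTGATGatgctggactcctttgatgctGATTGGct
H2-Eb2 (chr17:34325537-34325581, plus strand): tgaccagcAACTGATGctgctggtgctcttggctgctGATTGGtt
H2-DMb1 (chr17:34153091-34153136, plus strand): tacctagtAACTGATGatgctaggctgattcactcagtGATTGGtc
H2-DMb2 (chr17:34145120-34145165, plus strand): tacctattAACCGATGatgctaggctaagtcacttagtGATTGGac
H2-Oa (chr17:34092290-34092342, plus strand): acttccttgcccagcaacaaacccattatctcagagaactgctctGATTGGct
H2-Aa (chr17:34287865-34287917, minus strand): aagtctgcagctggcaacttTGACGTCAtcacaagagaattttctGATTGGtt
AACNGATG and GATTGG stood 21 or 22 bases apart in H2-Eb1, H2-Eb2, H2-DMb1 and H2-DMb2. Searched on both strands, AACNGATG occurred in 2.32% of the 32851 promoters in the table, GATTGG in 16.1% and TGACGTCA in 1.79%. Both AACNGATG and GATTGG within 10 to 30 bases in that order occurred in 6, which were those of these 4 genes and of BC051142 and H2-M10.4. H2-DMa has 2 entries, of which 1 held GATTGG and none AACNGATG. H2-Ab1, Cd74 and Ciita were not in the table.

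Other genes of the class II pathway showed no common direction. Of 28 listed, 24 were tested, and limma called 0 of them in input, RPF or translation efficiency. In RPF 6 of the 24 were below the median in both replicates and 9 above it, against 24.4% of all tested genes in each direction. The median relative log2 KO/WT of the 24 was 0.07 in each replicate. In translation efficiency 5 were below and 10 above, against 24.7% in each direction. Marchf1, a ubiquitin ligase that removes class II from the surface, was not found by its symbol. Rows with a date in place of a symbol were dropped from both tables, and it may be among them. Rfx5, the DNA-binding subunit of RFX, had a relative log2 KO/WT in RPF of 0.07 and -0.11.

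The enzymes that prepare peptide and invariant chain did not move together. Ctss, the cathepsin that makes the last cuts in the invariant chain, had 17617 RPF RPKM in WT and 7166 in KO in replicate 1 and 3065 and 3591 in replicate 2. Its relative log2 KO/WT in RPF was thus -0.84 and 0.26. Lgmn, an endosomal protease, had 0.40 and 0.16, and Ifi30, the reductase GILT, 0.08 and -0.22.

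Of the 10320 tested genes 327 were at least 1.5-fold below the median in RPF of both replicates and 417 above it. Ifngr2 is a subunit of the receptor for interferon gamma, which induces Ciita. It was the only gene of the pathway list at least 1.5-fold away from the median in the same direction in both replicates. Its RPF was 28.1 RPKM (WT) against 3.89 RPKM (KO) in the first replicate and 53.0 against 31.0 RPKM in the second, a relative log2 KO/WT of -2.25 and -0.73. Its input was level, at 92.9 against 87.1 RPKM in the first replicate and 101 against 102 RPKM in the second. The fitted change in RPF was -1.73 ± 0.62 with an adjusted p of 0.409 by limma.

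The class I pathway, fitted in the same way, gave 0 calls among 14 genes (0.242% of all tested genes in RPF). In RPF 5 of the 14 were below the median in both replicates and 2 above, against 24.4% of tested genes in each direction. The medians of the 14 were 0.16 and -0.30. H2-D1, a class I heavy chain, was the only one at least 1.5-fold away in the same direction in both, with a relative log2 KO/WT in RPF of 1.18 and 1.14. Of the 10320 tested genes 327 were lower by that much in RPF of both replicates and 417 higher. H2-D1 RPF was 904 RPKM (WT) against 1489 RPKM (KO) in the first replicate and 19.8 against 43.5 RPKM in the second. Input in the second was 1033 against 1089 RPKM, so its translation efficiency there stood at percentiles 0.1 (WT) and 0.4 (KO). Whether class I and class II differed was not tested.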

How the data were processed

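The authors deposited RPKM values of input mRNA and RPF with a table for each replicate. Tools named in the submitters' processing notes are bcl2fastq, TopHat2 2.0.14 and Cuffnorm, with the build mm10. Annotation and read filters: not given in the sources used here. The log2 translation efficiencies that the authors deposited were not used. Both tables use the same column names, and columns were assigned to the group named and the replicate of the table. The table of replicate 1 held 20605 rows, 27 of them with a date in place of a symbol, and that of replicate 2 held 11801 rows, 19 with a date. These were dropped, and older symbols were updated through RefSeq.

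Tests used limma 3.58.1 in R 4.3.3 (two-sided) on log2(RPKM + 0.5) of genes with a mean of at least 1 RPKM in input and in RPF, with the replicate, which is also the table, as a block and p-values adjusted by Benjamini and Hochberg over 10320 genes at a threshold of 0.05. This scale understates the change of low genes. Libraries of the same number deviated together from their group means (correlation across genes of 0.78, 0.85 and 0.83 for input, RPF and translation efficiency). In RPF and translation efficiency the prior degrees of freedom were infinite, so each SE reflects genes of similar level and not the gene's own replicates. Translation efficiency was log2 RPF minus log2 input of a lysate. The fit was run on simulated data to check the code. Their noise was set lower than the spread of the RPF changes, so this says nothing about error rates here.

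In replicate 2, RPKM times coding length (RPF) or exon length (input) and library total gave whole reads within 0.01 read for 99.0% of genes in both RPF libraries and for 80.9% (WT) and 81.1% (KO) in input. Input reads of H2-Aa and H2-DMb2 did not come out whole and are rounded. RPF reads of Cd74 fit its short isoform. Another 242 genes, none of them a member, stood on a length of 1 base in RPF of replicate 2. The alternatives were other pseudocounts, filters, scalings, the fit without the block and each library left out.

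The members and lists were chosen with earlier results of these data known. Named were all members, Ctss, Lgmn, Ifi30, Marchf1, Rfx5 and H2-Ob, and genes of the pathway and marker lists that passed the test or moved at least 1.5-fold in the same direction in both replicates.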

Additional observations from a re-analysis of the deposited data

How the results depend on the processing

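None of the 10 genes passed the test in input, RPF or translation efficiency under any of the 13 alternatives, where the lowest adjusted p was 0.999 for input, 0.245 for RPF and 0.479 for translation efficiency, both of the latter for H2-Eb1. H2-Eb1, H2-Ab1 and H2-Aa stayed below 0 in RPF and in translation efficiency under all of them, although their size moved with the library left out: in RPF H2-Eb1 lay between -3.59 and -0.15, H2-Ab1 between -1.78 and -0.57 and H2-Aa between -0.86 and -0.50, and in translation efficiency between -2.96 and -0.39, -1.84 and -0.52, and -0.89 and -0.64. Ciita also stayed below 0 in RPF under all alternatives, between -0.65 and -0.07. Settings that do not rescale the libraries keep the shift of the median gene, whose fitted RPF change was -0.23 in the main fit. Without WT replicate 2 this shift was -0.72 in RPF and -0.83 in translation efficiency, and without KO replicate 1 -0.46 and -0.58. Without WT replicate 2, H2-Ab1 (-0.57), H2-Aa (-0.50) and Ciita (-0.39) in RPF and H2-Ab1 (-0.52) in translation efficiency lay above the median gene. Without KO replicate 1, H2-Eb1 did so in RPF (-0.15) and translation efficiency (-0.39). Their other RPF fits with 1 library left out lay below it, as did those of the chains in translation efficiency. Over all genes, centring each library on its median or quantile normalization left 0 calls in RPF and 0 in translation efficiency, and a pseudocount of 0.1 gave 29 in translation efficiency against 17. Same-numbered libraries share a table, and without the replicate block limma called 0 genes in each of the 3 measures, with 12, 5 and 14 genes at an unadjusted p under 0.05 in input, RPF and translation efficiency. With each library left out in turn, fitted without the block and so across tables, the counts ran from 0 to 50 in input (33 without KO replicate 1, 50 without KO replicate 2), from 0 to 3 in RPF (3 without KO replicate 2) and from 0 to 4 in translation efficiency (4 without WT replicate 2, 1 without KO replicate 2). The cause of these differences was not tested.

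Signs of uncalled changes turned as follows. With centring and with quantile normalization, the fitted log2 KO/WT of H2-DMa input became 0.019 and 0.033, of H2-Eb2 RPF 0.072 and 0.078, of H2-DMb2 RPF 0.14 and 0.15, of H2-Eb2 translation efficiency 0.17 and 0.19 and of H2-DMb2 translation efficiency 0.19 and 0.17. With centring, Cd74 input became 0.0002. With 1 library left out, the fitted values that turned ranged as follows in input: H2-Aa -0.21 to 0.39, H2-Ab1 -0.043 to 0.068, H2-Eb1 -0.73 to 0.34, H2-Eb2 -0.84 to 0.59, H2-DMa -0.18 to 0.15, H2-DMb1 -0.47 to 0.19, H2-DMb2 -0.19 to 0.042, H2-Oa -0.024 to 0.30, Cd74 -0.30 to 0.24, Ciita -0.60 to 0.92. In RPF they ranged as follows: H2-Eb2 -0.73 to 0.40, H2-DMa -2.93 to 0.94, H2-DMb1 -2.05 to 0.47, H2-DMb2 -1.10 to 0.91, H2-Oa -2.13 to 0.85, Cd74 -0.36 to 1.07. In translation efficiency they ranged as follows: H2-Eb2 -0.67 to 0.59, H2-DMa -2.75 to 0.79, H2-DMb1 -2.07 to 0.77, H2-DMb2 -1.15 to 1.10, H2-Oa -2.38 to 0.82, Cd74 -0.12 to 0.89, Ciita -1.42 to 0.38.

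Each test had 2 replicates per group and 1 residual degree of freedom per gene, and the depth of replicate 1 is unknown. In replicate 2 the DM chains and H2-Oa rested on 68 to 279 footprints in WT.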
